A study of Rattus norvegicus with 38 samples.

Results

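Methylation of single CpG positions that stood at 25% to 45% in the buccal swabs of newborn rats was followed from P2 to P10. A region was included where it covered 1 CpG position, so that its end minus its start was 1, and where its mean percentage over the 19 P2 swabs was at least 25 and below 45. This held for 694 of the 3417 differentially methylated regions (DMRs) of the series, or 20.3%, and for 27.6% of the 2510 single-CpG DMRs. The swabs came from 19 Sprague Dawley pups in 2 cohorts, each swabbed at P2 and again at P10, which gave 38 samples measured by reduced representation bisulfite sequencing (RRBS). Control pups lived from P2 to P9 in standard bedded cages, and LBN pups lived in cages with limited bedding and nesting material, which disturbs the care the dam gives. There were 6 controls and 5 LBNs in cohort 1, and 4 of each in cohort 2. All pups were untreated at P2, since the first swabs preceded the assignment to cages. Pups of several litters were mixed before each dam received 12 of them, and the sex, dam and cage of a sampled pup are not given, so pups that shared a dam were treated as independent and p-values may then be too small.

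In mammalian DNA a methyl group is carried mainly by the cytosine of a CpG, and most CpGs outside CpG islands are methylated while those of active promoters and enhancers are often not. At one CpG an allele is either methylated or not, so an intermediate percentage is a mixture of methylated and unmethylated alleles, between cells or within them. A buccal swab holds epithelial cells of the mouth lining and leukocytes, whose methylomes differ at many positions. Because the percentages are of bulk DNA, a change in the share of a cell type and a change of methylation within a cell type cannot be told apart. The labelled cell mixture could not be checked by marker expression, because methylation alone was measured.

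Every member had a percentage in every sample, with 16 values at 0, none at 100 and a highest value of 91.9. Read counts are not given with the percentages. The depth is therefore unknown, and single values carry no error. No pair of samples held identical values, and the highest correlation of any 2 samples over all DMRs was 0.932. The study listed 156 of the members for its principal components, a choice made on these same samples, and gene names were available for 120 of them, at 118 genes. By that annotation, 59 were in introns, 29 between genes, 14 in exons, 11 at promoters and 7 at transcription termination sites. Positions are on rn6 as deposited, and whether they count from 0 or 1 is not given. A single member lay on chromosome X.

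Of the 11 promoter members, 3 passed the test for age (limma, Benjamini-Hochberg adjusted over 3417 DMRs), against 14 of all 28 promoter DMRs and 43.7% of all DMRs. They were chosen for display after their values were seen. The sequences are from RefSeq on GRCr8, a later build than the rn6 of the methylation values. The measured CpG itself was not placed in them, and whether a window holds it is unknown. Each runs 5′ to 3′ on the strand of its gene, from 250 bases before to 50 bases after the start, with every CG in capitals. Hes7, a transcriptional repressor of the somite clock, is shown as chr10:54322721-54323020 on the + strand, Slc44a3, a choline transporter-like protein, as chr2:212312578-212312877 on the − strand, and Clptm1l, a membrane protein, as chr1:31512028-31512327 on the − strand.
Hes7: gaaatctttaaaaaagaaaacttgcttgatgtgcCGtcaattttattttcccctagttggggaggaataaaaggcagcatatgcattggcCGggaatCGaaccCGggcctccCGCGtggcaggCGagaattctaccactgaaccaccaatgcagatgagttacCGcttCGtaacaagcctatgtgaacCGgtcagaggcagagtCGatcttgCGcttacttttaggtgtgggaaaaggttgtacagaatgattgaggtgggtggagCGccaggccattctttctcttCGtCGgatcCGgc
Slc44a3: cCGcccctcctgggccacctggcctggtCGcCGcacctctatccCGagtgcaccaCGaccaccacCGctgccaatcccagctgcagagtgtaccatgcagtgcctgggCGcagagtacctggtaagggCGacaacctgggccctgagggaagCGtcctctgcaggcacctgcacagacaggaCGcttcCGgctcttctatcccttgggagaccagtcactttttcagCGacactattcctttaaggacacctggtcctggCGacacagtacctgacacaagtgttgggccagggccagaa
Clptm1l: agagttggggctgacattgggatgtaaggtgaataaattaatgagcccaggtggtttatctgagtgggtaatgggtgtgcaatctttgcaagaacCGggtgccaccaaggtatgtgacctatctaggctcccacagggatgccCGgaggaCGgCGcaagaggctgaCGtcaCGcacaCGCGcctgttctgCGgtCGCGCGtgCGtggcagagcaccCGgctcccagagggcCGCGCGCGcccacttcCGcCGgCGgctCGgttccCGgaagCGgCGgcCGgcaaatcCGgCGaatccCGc
The motifs searched were CG and CCGG, which read alike on both strands, every CCGG also holding a CG. CCGG is the site cut by MspI, the enzyme commonly used for RRBS. The Hes7 window held 16 CG and 4 CCGG, the Slc44a3 window 13 CG and 1 CCGG, and the Clptm1l window 29 CG and 7 CCGG. Of 33469 promoters of the same length, 51.4% held CCGG, and 30.5% had at least as many CG as Hes7, 35.3% as many as Slc44a3 and 11.5% as many as Clptm1l. A match describes the letters of the window and no more.

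At the Hes7 promoter member, methylation was between 19.01% and 44.4% at P2 (median 32.0%) and between 39.6% and 68.2% at P10 (median 47.8%). It was higher at P10 in 19 of 19 pups, and the log2 odds of methylation rose by 1.01 ± 0.19 (SE, limma adjusted p = 0.000181). The log2 odds here and below are log2((percent + 1)/(100 − percent + 1)). The authors selected the DMRs for P2 to P10 differences in these pups, so p-values for age here and below are descriptive. At the Slc44a3 promoter member the median fell from 29.0% (8.22% to 61.4%) to 12.5% (1.52% to 43.8%), lower in 15 of 19 pups, with a change of −1.20 ± 0.34 (SE, limma adjusted p = 0.00587). At the Clptm1l member the mean went from 30.9% to 22.9%, lower in 12 pups, with a change of −0.62 ± 0.24 (SE, limma adjusted p = 0.0385). The other promoter members had adjusted p-values above 0.05, among them B3gnt2, a glycan-extending enzyme (33.9% to 28.8%), Gnl3, which encodes nucleostemin (27.5% to 25.2%), and Prpf4b, a kinase of the splicing machinery (44.8% to 43.8%).

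The rule holds the P2 means within a band, so a wider range of P10 means follows from the choice and is given as a description. Their P2 means had quartiles of 31.1%, 36.0% and 41.0%, and their P10 means had quartiles of 28.6%, 35.4% and 42.6%, from 7.71% to 62.1%. At P10, 96 members had a mean below 25%, 493 were still in the band and 105 had reached 45% or more. The mean was lower at P10 at 337 members and higher at 357. Lower means made up 48.6% of members and 57.0% of all DMRs. A shift of at least 10 percentage points was seen downwards at 101 members and upwards at 80, and the extremes were −23.4 and 21.0 points. The median change was 0.253 points over members and −1.85 points over all DMRs.

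**Figure D1:**
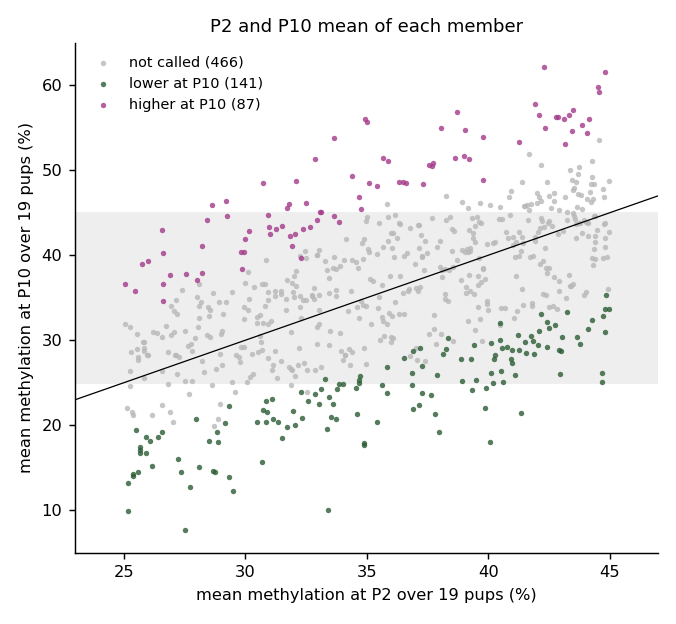
Mean methylation of each DMR at P2 (x axis, %) and P10 (y axis, %) over the 19 pups. The members fill a band from 25% to 45% at P2 and reach from 7.71% to 62.1% at P10, on both sides of the line of equal values.

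Averaged over the 694 members, methylation was 35.8% ± 4.63 (SD, n = 19 pups) at P2 and 35.4% ± 6.73 at P10, a change of −0.43 points ± 5.68 that was far smaller than the spread between pups. The ranges of the cohorts overlapped at P2 and lay apart at P10. So did the P10 ranges of the mean over all DMRs, 48.8% to 55.1% in cohort 1 and 39.4% to 46.02% in cohort 2. In cohort 1 the member mean at P10 was 37.8% ± 2.88 (SD, n = 6) in controls and 43.3% ± 2.48 (n = 5) in LBNs, and in cohort 2 it was 29.4% ± 1.38 (n = 4) in controls and 27.9% ± 3.05 (n = 4) in LBNs. In cohort 1 the P10 ranges, 34.2% to 42.1% in controls and 40.5% to 46.99% in LBNs, overlapped, and in cohort 2 the LBN range of 25.5% to 32.3% held the whole control range of 27.9% to 30.7%. At P2, before assignment, the cohort 1 means were 37.9% ± 3.88 and 38.8% ± 4.90 and the cohort 2 means were 30.7% ± 2.30 and 33.99% ± 1.76, for pups later assigned to control and LBN. The change per pup ran from −8.25 points in control 6 of cohort 1 to 9.12 points in LBN 2 of cohort 1. It averaged 4.43 ± 4.40 in LBNs and −0.10 ± 6.55 in controls of cohort 1, and −6.11 ± 1.57 in LBNs and −1.33 ± 3.18 in controls of cohort 2, so the order of the groups was opposite in the cohorts.

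**Figure D2:**
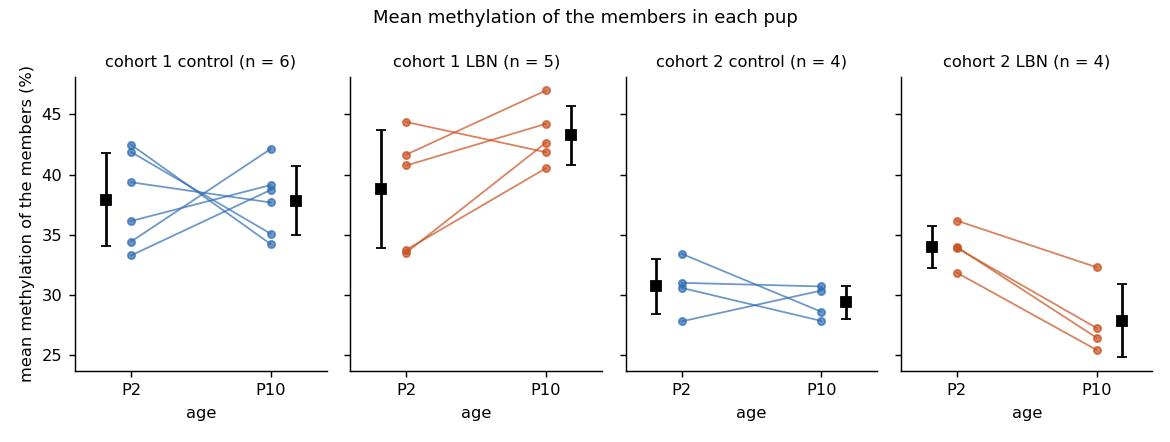
Mean methylation of the 694 members (y axis, %) in each pup at P2 and P10, by cohort and group, with a line joining the swabs of a pup. Cohort 2 pups lie between 25.5% and 32.3% at P10, all below the 34.2% to 46.99% of cohort 1. The mean over all DMRs also lay apart between the cohorts at P10.

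The member means at P2 and P10 were compared over pups. Within cohort 1 the member means at P2 and P10 correlated at r = −0.0894 over 11 pups, and within cohort 2 at 0.0153 over 8 pups, where each point is a pup and both axes average the same members. Over all 19 pups r was 0.552, with the cohorts lying apart at P10. The P2 mean and the change of a pup, which share the P2 value, correlated at r = −0.764 in cohort 1 and −0.737 in cohort 2. The number of members that moved by at least 20 points within a pup ranged from 65 in LBN 4 to 432 in LBN 2, both of cohort 1. The median SD of a member between pups was 11.7 points at P2 and 10.7 at P10 in cohort 1, and 9.12 and 8.004 in cohort 2. Single-CpG DMRs below 25%, whose levels are bounded by 0, had median SDs of 6.60, 6.88, 5.41 and 4.97 in the same order, and those at 75% or more had 6.88, 7.42, 6.38 and 9.58. The other groups had values above or below those of the members. They were 12.2, 11.5, 10.8 and 10.2 for single-CpG DMRs of 45% to 60%, and 10.004, 9.98, 9.45 and 10.9 for those of 60% to 75%. For multi-CpG DMRs of 25% to 45% they were 11.8, 11.2, 8.59 and 7.64.

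Many members moved together across the 38 samples. The first principal component of their log2 odds held 53.6% of the variance, with a weight of the same sign at 498 of the 694 members, and the second held 15.1%. The correlation of a member's percentages with the mean of the other members had a median of 0.516, exceeded 0.9 at 74 members (10.7%, against 5.21% of all DMRs) and was below 0 at 176. These correlations share samples and libraries, and they describe the members without a test. At the 356 members with r above 0.5, the cohort 1 P10 means were 55.4% in LBNs (48.9% to 63.5% over 5 pups) and 41.1% in controls (30.1% to 53.0% over 6), and the cohort 2 P10 means were 23.1% (17.3% to 29.7%) and 26.4% (19.3% to 30.1%). The 113 members with r below −0.3 had the opposite order of groups at P10. Their means were 21.4% in cohort 1 LBNs, 32.2% in cohort 1 controls, 33.95% in cohort 2 controls and 36.9% in cohort 2 LBNs. The 225 members between these limits had group means from 30.9% to 37.6%. Members were sorted by r over these same samples, so the opposite orders follow from the sorting and are no separate evidence. Srcin1, an inhibitor of Src signalling, had the lowest correlation (exon member, r = −0.861), while Man1c1, a mannosidase of the Golgi (intron member, r = 0.915), was near the other end.

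The member mean was set beside DMRs at marker genes of the cell types of a swab. Of 24 entries in the epithelial marker list, where an entry can cover a gene family such as the keratins, 4 had a DMR with a gene name. The mean percentage of their 5 DMRs, at Krt42, Dsc3, Itga6, Krt75 and Epcam, correlated with the member mean at r = 0.972 over 38 samples, and the changes per pup at r = 0.965. Singly, Krt42, Dsc3 and Itga6 had r of 0.929, 0.882 and 0.868, and Epcam and Krt75 had 0.432 and 0.442. Krt75, a keratin, is itself a member, with a mean of 43.7% at P2 and 50.4% at P10 (limma adjusted p = 0.314). The epithelial mean ran from 15.9% to 56.9% and at P10 was 49.1% in cohort 1 LBNs (43.7% to 55.3%), 39.4% in cohort 1 controls (28.0% to 50.2%), 21.96% in cohort 2 controls (16.2% to 24.8%) and 19.01% in cohort 2 LBNs (15.9% to 27.0%). The mean of the 4 DMRs at leukocyte genes (Cd83, Cxcr4, Jak3 and Pik3cd, 4 of 39 entries) ran from 25.7% to 61.6% and correlated with the member mean at r = 0.366, and the changes at −0.217. Singly, r was 0.701 at Pik3cd, 0.197 at Cxcr4, 0.137 at Cd83 and −0.233 at Jak3. At P10 it was 46.1% in cohort 1 LBNs (33.7% to 61.6%), 39.3% in cohort 1 controls (31.7% to 50.01%), 32.6% in cohort 2 controls (25.7% to 37.7%) and 32.4% in cohort 2 LBNs (28.1% to 39.5%). The stromal list gave 1 DMR, at Mrc2, with r = 0.882. Gene names exist only for DMRs that the study had picked on these samples. Of all DMRs, 38.7% had r above 0.5 with the member mean, so a high r is not particular to epithelial genes. The part of cell composition in the results below was not tested.

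**Figure D3:**
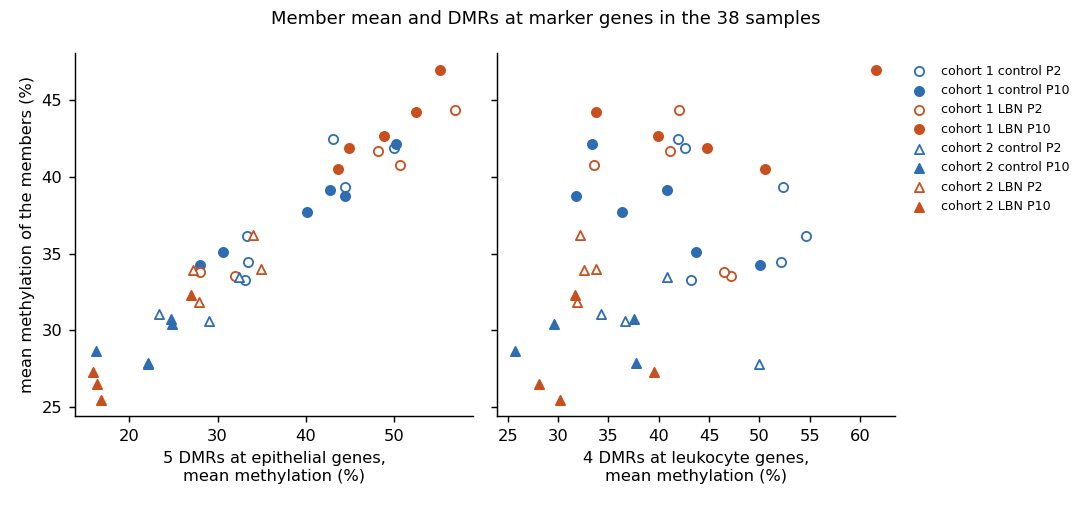
Mean methylation of the 694 members (y axis, %) against the mean of 5 DMRs at epithelial genes (left, x axis, %) and of 4 DMRs at leukocyte genes (right, x axis, %) in the 38 samples. The points lie close to a line on the left (r = 0.972) and scatter on the right (r = 0.366). Singly, r ran from 0.432 to 0.929 at the epithelial DMRs and from −0.233 to 0.701 at the leukocyte DMRs.

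Other DMRs shared the axis to different degrees. The mean of the 237 multi-CpG DMRs in the same band followed the member mean over the 38 samples (r = 0.991). The mean of the 328 single-CpG DMRs at 75% or more ran against it in cohort 1 (r = −0.715 over 22 samples) and with it in cohort 2 (r = 0.4661 over 16 samples). Members lay within 1000 base pairs of each other in 2 pairs. The pair in an intron of Tnfaip2, a gene induced by tumour necrosis factor, was 186 base pairs apart and correlated at r = 0.495, and the pair at chr7:11427545 and chr7:11427786 was 241 base pairs apart and correlated at r = −0.426.

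Age was compared within pups by limma, with the pup as a block. The authors had selected the DMRs because P2 and P10 differed in these pups, and the members were chosen by their P2 levels. The counts and the p-values of single members for age are therefore descriptive. Of the 694 members 228 were called (32.9%, against 43.7% of all DMRs), 141 lower at P10 (20.3%, against 30%) and 87 higher (12.5%, against 13.7%). At least 16 of 19 pups were lower at 66 members (9.51%, against 14.8% of all DMRs) and higher at 46 (6.63%, against 7.46%). All 19 pups moved down at 5 members and up at 7, shares of 0.72% and 1.01% against 1.29% and 0.966% of all DMRs. In introns 23 of 59 members fell and 6 rose, between genes 9 of 29 fell and 2 rose, in exons 4 of 14 fell and 1 rose, and at termination sites 1 of 7 fell and 1 rose. Of all DMRs with these annotations, 120 of 202 were called in either direction in introns, 64 of 113 between genes, 48 of 93 in exons and 11 of 22 at termination sites. In controls alone 123 members were called (17.7%, against 27.6% of all DMRs), and in the 9 LBNs alone 26 (3.75%, against 5.33%), a difference in counts that was not itself tested. The changes of controls and LBNs, which share no pup, correlated at r = 0.808 over the members (0.838 over all DMRs).

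The largest falls included members at galectin-3, an aquaporin and an adaptor of tumour necrosis factor receptors. The intron member of Lgals3, which encodes galectin-3, a lectin that binds beta-galactosides (chr15:24154167-24154168), was at 10.6% to 41.1% at P2 (median 28.9%) and at 0.855% to 24.1% at P10 (median 5.03%). The level was lower at P10 in every pup, though the ranges overlapped. The mean went from 27.5% ± 7.63 to 7.71% ± 6.26 (SD, n = 19), a change in log2 odds of −2.34 ± 0.23 (SE, limma adjusted p = 5.41e-08). Near Aqp3, a water and glycerol channel of epithelia (intergenic, chr5:57411012-57411013), the median went from 26.6% (6.99% to 39.4%) to 11.2% (0.833% to 19.01%), lower in 19 of 19 pups (−1.70 ± 0.21, SE, limma adjusted p = 2.6e-06). In control 9 of cohort 1 the difference was as small as −0.127 points. Near Traf1, an adaptor of tumour necrosis factor receptors (intergenic, chr3:14024284-14024285), the median went from 38.6% (19.2% to 56.7%) to 14.4% (5.47% to 36.4%), again lower in 19 of 19 pups (−1.66 ± 0.21, SE, limma adjusted p = 2.6e-06). Near Xylt2, which begins glycosaminoglycan chains (intergenic, chr10:82406826-82406827), the mean went from 34.9% ± 11.1 to 17.7% ± 11.3, lower in 18 pups and 13.8 points higher in LBN 3 of cohort 1 (limma adjusted p = 5.64e-05). The members at chr11:82916644-82916645 (33.4% to 10.0%, 19 of 19 pups) and chr2:141736430-141736431 (29.5% to 12.2%, 17 of 19 pups) had no gene name and fell by 2.30 and 1.61 log2 odds.

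Among the largest rises, the exon member of Nfic, a nuclear factor I transcription factor (chr7:11158329-11158330), was at 15.3% to 50.8% at P2 (median 36.4%) and at 30% to 78.6% at P10 (median 56.9%). It was higher at P10 in 17 of 19 pups, with a change of 1.30 ± 0.24 (SE, limma adjusted p = 0.000194), but did not pass in cohort 2 alone (adjusted p = 0.0813). The intron member of Bahcc1, a gene for a BAH-domain protein (chr10:109476943-109476944), had the tighter groups, from 23.5% to 44.7% at P2 (median 33.3%) and from 42.7% to 64.2% at P10 (median 54.3%). It was higher at P10 in 19 of 19 pups, with a change of 1.19 ± 0.17 (SE, limma adjusted p = 1.43e-05). Rises of 1.22 and 1.23 log2 odds were found at chr11:83455264-83455265 (35.0% to 55.7%, 19 of 19 pups) and chr4:56113945-56113946 (42.3% to 62.1%, 17 of 19). At chr9:88082440-88082441 (32.9% to 51.4%) the call was lost in LBNs alone (adjusted p = 0.0938), and at chr8:127348305-127348306 (26.6% to 42.9%) it was lost in cohort 2 alone (0.0947) and in LBNs alone (0.111), all by limma.

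**Figure D4:**
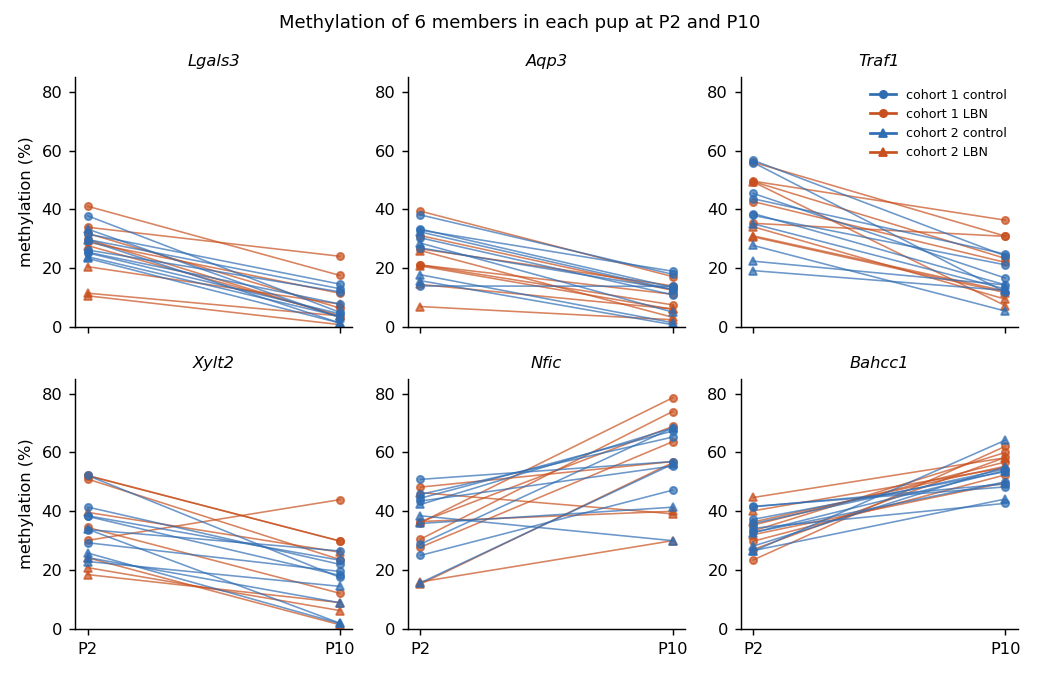
Methylation (y axis, %) of 6 members in each of the 19 pups at P2 and P10, with lines joining the swabs of a pup, coloured by group. Lines fall at Lgals3, Aqp3, Traf1 and Xylt2 and rise at Nfic and Bahcc1, with 17 to 19 pups in the shared direction at each.

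The members with the largest changes followed the shared axis to different degrees. The correlation with the mean of the other members was 0.311 at Lgals3, 0.246 at Aqp3, 0.515 at Traf1, 0.587 at Xylt2, 0.336 at Nfic and 0.0157 at Bahcc1. By Pearson correlation of log2 odds over the 38 samples, the DMRs most like Lgals3 were chr13:73740420-73740421 (r = 0.919, 54.8% to 26.3%) and chr12:13368480-13368481 (r = 0.909, 56.2% to 22.03%), which fell in 19 of 19 pups. The latter was also most like chr11:82916644 (r = 0.892). Nfic was most like chr7:12784026-12784027 (r = 0.719), and chr4:56113945 was most like chr19:25123833-25123840 (r = 0.899).

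The list for tumour necrosis factor and NF-kB signalling, which also took in the lectin gene Lgals3, held 5 members at 4 genes. With age 3 of them fell and 1 rose, with a median change of −1.34 log2 odds. The largest of these falls, −2.34, was at Lgals3, which is not a component of that signalling. Over all DMRs the median was −0.14, and 30% fell and 13.7% rose. Gene names exist only for DMRs that the study had picked on these samples, so the counts and medians of this and the following lists describe picked members and are not read against those shares. Lgals3 and Traf1 are given above. The intron member of Tnfrsf1b, a receptor of tumour necrosis factor (chr5:163140329-163140330), was at 30.7% ± 9.94 at P2 and 15.6% ± 8.36 at P10 (SD, n = 19) and was lower in 17 pups (limma adjusted p = 0.000596). At Tnfaip2 one member rose from 36.3% to 48.6% (limma adjusted p = 0.00875) and its neighbour was at 33.03% and 35.3% (adjusted p = 0.589). Of 4 members at glycan-modifying enzymes, Xylt2 and Hs6st1, a heparan sulfate sulfotransferase (31.1% to 20.8%), fell, and B3gnt2 and Man1c1 were not called. Of 7 members at regulators of actin, microtubules and small GTPases, 4 fell and 1 rose, where 30% and 13.7% of all DMRs did. Rab11fip4, an effector of Rab11 in endosome recycling, rose from 25.8% ± 6.57 to 39.0% ± 6.81 (SD) in 19 of 19 pups (limma adjusted p = 0.000432). Talin-1, Tln1, which couples integrins to actin, fell from 34.6% to 21.4% (exon member, 16 of 19 pups), and Sipa1, a Rap GTPase-activating protein, fell from 27.4% to 14.5% (exon member, 15 of 19 pups).

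Among members with a gene name, neither list of transcription factors held a called member, while Nfic and Hes7, given above, belong to neither list. The 2 homeobox members, near Satb1, a chromatin organizer (35.8% to 31.9%), and in Nkx2-2 (35.7% to 32.3%), and the 3 members near Klf3 (31.7% to 37.1%), near Foxc1 (25.3% to 28.6%) and in Tbx3 (25.3% to 26.4%) had adjusted p-values of 0.307 to 0.941. Among its DMRs with a gene name, the whole series held 23 at homeobox genes and 16 at the second list of factors. Among the other lists, Chrna9, a nicotinic receptor subunit, fell from 35.4% to 20.4% (limma adjusted p = 0.00468), Cd83, a surface protein of activated dendritic cells, fell from 44.8% to 30.9% (0.0093), and Fgfr3, a fibroblast growth factor receptor, was at 28.7% and 19.9% (0.0734). DNA methylation enzymes and imprinted genes held none of the 120 members with a gene name, and the other members could not be assigned to genes. The genes that the study names, chosen on these samples and so no independent evidence of direction, held 22 members at 21 genes, of which 11 fell, 1 rose and 10 were not called. Among them Fbxo9, an F-box protein of ubiquitin ligases, fell from 43.0% to 28.7% (16 of 19 pups), Rai1 from 40.2% to 25% (15 of 19) and Eif3k, a translation initiation factor subunit, from 37.9% to 25.9% (17 of 19). Mrpl23, a mitochondrial ribosomal protein, fell from 25.4% to 14.0%, and Ttll5, a tubulin polyglutamylase, from 40.3% to 28.3%. Ampd3 (31.3% and 25.6%), Nrp2 (38.5% and 29.9%) and Hr (27.6% and 29.3%) were not called.

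So that the band and the change rested on different pups, single-CpG DMRs were also chosen by the P2 swabs of 1 cohort and read in the other. The authors' selection of the DMRs for age differences still used pups of both cohorts, so the reading is not independent of that selection. The 633 chosen in cohort 1, of which 547 are members, were at 32.1% ± 1.59 at P2 and 28.8% ± 1.91 at P10 in cohort 2 (SD, n = 8), and 105 were called there (16.6%, against 27.6% of all DMRs), 81 lower and 24 higher. The 714 chosen in cohort 2, of which 534 are members, were at 42.1% ± 4.81 and 43.8% ± 4.31 in cohort 1 (SD, n = 11), and 166 were called (23.2%, against 25.8%), 93 lower and 73 higher. Age differences per member in the cohorts, which share no pups, correlated at r = 0.461 over the 694 members (0.600 over all DMRs). Both the DMRs and the 694 members were chosen on both cohorts, so this and the shared calls are a description. The 44 members called in both cohorts, 29.3% of the 150 called in cohort 1 and 37.3% of the 118 in cohort 2, had the same sign. Over all DMRs 372 were called in both, 42.3% of 880 and 39.4% of 943, and 367 had the same sign. The counts of 1 cohort depended on single pups, as did the shares of all DMRs given in brackets. The 150 (25.8%) became 262 or 271 (38.4% or 39%) without control 6 or 9. They became 91, 73 or 62 (18.4%, 15% or 13.7%) without control 4, 7 or 12, and 75, 97 or 88 (15.6%, 19.1% or 17.7%) without LBN 2, 3 or 9. The 118 (27.6%) became 70 or 59 (19.6% or 17.1%) without control 5 or 8.

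The comparison of LBN with control pups at P10 asks whether the week in the cages is seen in the level. With both cohorts and cohort as a covariate, limma called 0 of the 694 members (0% of all DMRs), 69 had an unadjusted p under 0.05 (9.94%, against 9.86% of all DMRs), and limma with array weights also called 0. The smallest p was at an exon member of Prr5l, a gene for a protein associated with mTOR complex 2 (chr3:91349037-91349038), at 19.1% ± 17.0 in controls and 31.3% ± 23.9 in LBNs (SD, n = 10 and 9), a difference of 1.28 ± 0.36 log2 odds (SE, limma adjusted p = 0.482). In cohort 1 its P10 values were 16.1% to 48.0% in controls (median 25.05%) and 48.0%, 28.0%, 45.6%, 70.0% and 53.8% in LBNs. In cohort 2 they were 2.15%, 2.86%, 1.65% and 5.97% in controls and 4.76%, 17.6%, 5.38% and 8.64% in LBNs. LBNs lay higher in both cohorts with overlap, and the gap between the cohorts exceeded the gap between the groups. Prr5l also followed the member mean (r = 0.889).

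The intron member of Tnfrsf1b was also among the 5 smallest p-values at P10, at 11.2% ± 4.79 in controls and 20.6% ± 8.88 in LBNs (SD), a difference of 1.05 ± 0.35 (SE, limma adjusted p = 0.482). In cohort 1 the controls were at 4.41% to 16.5% (median 13.0%) and the LBNs at 11.8%, 29.9%, 26.03%, 21.4% and 35.7%. In cohort 2 the controls were at 15.2%, 2.35%, 8.06% and 14.9% and the LBNs at 21.1%, 14.9%, 16.7% and 7.94%. In cohort 1, all LBNs but the lowest lay above every control, and in cohort 2 the groups overlapped. The other members of this rule were chr11:53764021-53764022 (18.03% and 31.3% in controls and LBNs), chr10:106180136-106180137 (25.5% and 36.8%) and chr15:42311383-42311384 (31.0% and 17.8%), all with limma adjusted p = 0.482.

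Within cohort 1 alone, limma called 109 members at P10 (15.7%, against 12% of all DMRs), 75 higher (7.52% of all DMRs were) and 34 lower (4.45%) in LBNs. All 75 higher members had a positive correlation with the mean of the other members, and 32 of the 34 lower ones a negative one. That correlation includes these same samples, so the signs are no separate evidence. The epithelial mean was 49.1% in these LBNs and 39.4% in the controls. The leukocyte mean was 46.1% and 39.3%, and Mrc2 was at 65.7% and 49.96%, in the same order. LBN ranges lay wholly above the control ranges at 31 members (4.47%, against 2.72% of all DMRs) and wholly below them at 8 (1.15%, against 2.08%). The count depended on single pups, as did the share of all DMRs: it was 0 without control 3, 6 or 9 or LBN 2, 9 or 12 (0% of all DMRs). It was 19 without control 12 (2.66%), 47 without control 7 (5.62%) and 287 without control 4 (33.7%). It was 149 without LBN 3 (16.4%) and 128 without LBN 4 (13.3%). Within cohort 2 alone limma called 0 members (0% of all DMRs), with 6 at an unadjusted p under 0.05 (0.865%, against 1.32%). The interaction of cohort and group at P10 was called at 0 of 694 members (0% of all DMRs), with 214 at an unadjusted p under 0.05 (23.6% of all DMRs), by limma as the one tool run.

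Differences were also called at P2, before any pup had been assigned, and are given as a description because P2 levels chose the members. With both cohorts limma called 0 members (0% of all DMRs), with 101 at an unadjusted p under 0.05 (14.6%, against 13.4%), and 361 with array weights (46.6% of all DMRs). In cohort 2 alone it called 96 (13.8%, against 14% of all DMRs), 57 higher (4.33% of all DMRs were) and 39 lower (9.69%) in pups later assigned to LBN. All 57 higher members had a positive correlation with the mean of the other members and 30 of the 39 lower ones a negative one. That correlation includes these same samples, so here too the signs are no separate evidence. LBN ranges lay above the control ranges at 115 members (16.6%, against 10.7% of all DMRs) and below them at 61 (8.79%, against 13.3%). The count of 96 calls was 0 without control 5 or 11 or LBN 9 or 11, where at most 0.205% of all DMRs were called. It was 1 without LBN 4 (0.498%), 18 without control 1 (3.13%), 69 without LBN 2 (11.9%) and 154 without control 8 (19.6%). In cohort 1 at P2 limma called 0, with 5 at an unadjusted p under 0.05 (0.72%, against 1.73%). By the rule for P2, the members with the smallest p were chr3:166085809-166085810 (39.2% in controls and 21.6% in LBNs), the intron member of Ralgapa2, a Ral GTPase-activating subunit (48.2% and 31.1%, chr3:140610691-140610692), and chr6:52651681-52651682 (22.7% and 38.1%), each with limma adjusted p = 0.354.

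The LBN minus control differences of cohort 1 at P10 and of cohort 2 at P2, which share no sample and of which the latter precedes the cages, correlated at r = 0.741 over the 694 members (0.642 over all DMRs) and had the same sign at 84.1% (77.8% of all DMRs). The values are a description with no test, because P2 levels chose the members and because the members, with 53.6% of their variance in 1 component, are not independent points. The differences of cohort 1 and cohort 2 at P10 correlated at r = −0.403 (−0.283 over all DMRs) and had the same sign at 31.0%. Those of the cohorts at P2 correlated at r = 0.428 (0.307 over all DMRs) and had the same sign at 70.0%. Members called both in cohort 1 at P10 and in cohort 2 at P2 numbered 26, which is 23.9% of 109 and 27.1% of 96, and all 26 had the same sign, 16 higher and 10 lower. Over all DMRs 89 were called in both, 21.8% of 409 and 18.6% of 479. At P10 in cohort 2 the sign was the same at 4 of the 26, and at P2 in cohort 1, before assignment, at 22. With a gene name were Dusp10, a phosphatase of stress-activated kinases (chr13:104322042-104322043), and Ttc28 (intron, chr12:51584487-51584488), both named after their values were seen. The Dusp10 member was at 32.4% ± 6.51 in controls and 55.6% ± 11.4 in LBNs (SD, n = 6 and 5) in cohort 1 at P10, and at 19.2% ± 7.14 and 35.5% ± 5.62 (n = 4 each) in cohort 2 at P2. The Ttc28 member was at 31.4% ± 8.14 and 14.2% ± 8.44 in cohort 1 at P10, and at 59.3% ± 12.8 and 36.8% ± 6.66 in cohort 2 at P2.

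**Figure D5:**
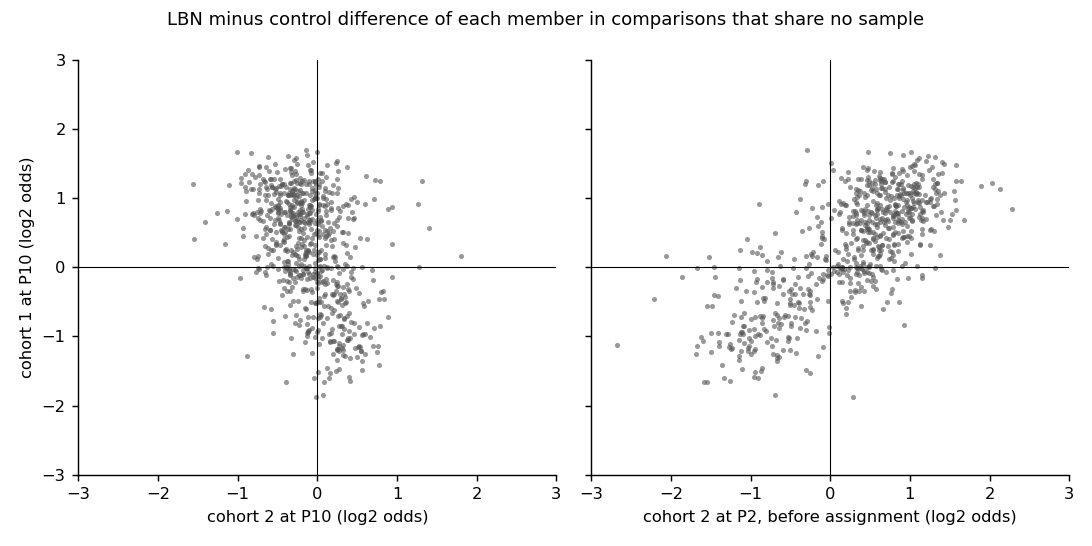
Difference in log2 odds between LBN and control pups for each of the 694 members in cohort 1 at P10 (y axis) against cohort 2 at P10 (left, x axis) and cohort 2 at P2, before assignment (right, x axis). The cloud slopes down on the left (r = −0.403) and up on the right (r = 0.741).

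The change from P2 to P10 within a pup, δ methylation, was compared between the groups on the log2 odds. With cohort as a covariate limma called 0 members (0% of all DMRs), with 16 at an unadjusted p under 0.05 (2.31%, against 3.42%), and 1 with array weights. In cohort 1 alone it called 0, with 33 at an unadjusted p under 0.05 (4.76%, against 5.3%), and in cohort 2 alone 0 (0.0585% of all DMRs), with 180 (25.9%, against 23.7%). The member with the smallest p was the intron member of Tnfrsf1b, which changed by a mean of −23.6 points in controls and −5.53 points in LBNs, a difference of 1.64 ± 0.49 log2 odds (SE, limma adjusted p = 0.999). Its P2 mean was already higher in pups later assigned to control, so the gap in change includes a difference that preceded the cages. The two-sided exact permutation test over 92378 arrangements of the 19 pups, made without regard to cohort, gave p = 0.00232 for Tnfrsf1b. The same exact test gave p = 0.0095 at Rims2, a scaffold of presynaptic active zones (37.7% to 39.5% in controls, 48.2% to 35.0% in LBNs), p = 0.0107 at the promoter member LOC100361087 (23.7% to 25.4% and 29.7% to 19.1%), p = 0.0160 at chr3:166085809 and p = 0.0337 at Prr5l. These 5 were picked as the smallest of 694, and their limma adjusted p was 0.999 each. With pups rearranged only within their cohort (32340 arrangements, added after seeing the data), the exact p ran from 0.00278 at Tnfrsf1b to 0.0204 at Prr5l. The interaction of cohort and group in the change was called at 0 members (0.0585% of all DMRs), with 201 at an unadjusted p under 0.05 (24.7% of all DMRs), by limma as the one tool run. LBN minus control differences in the change correlated between the cohorts at r = −0.582 over the 694 members (−0.483 over all DMRs).

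The cohorts themselves differed in the change at 4 members (0.576%, against 2.4% of all DMRs), all lower in cohort 2. Some other settings also called members higher in cohort 2. These were 4 of 7 on percentages (3.45% of all DMRs were called), 3 of 27 on log2 of the percentage (5.85%) and 21 of 237 with array weights (29.6%). At the intron member of Dapk1, a death-associated kinase (chr17:4384985-4384986), the change in cohort 1 was between 0.208 and 49.9 points (median 29.2), with all 11 pups higher at P10, and in cohort 2 between −45.0 and 13.2 points (median −16.6). The mean went from 43.1% to 70.8% in cohort 1 and from 39.7% to 25.98% in cohort 2, a difference of −2.67 ± 0.54 log2 odds (SE, limma adjusted p = 0.00984). Near AABR07051218.1 (chr3:1659938-1659939) the mean went from 48.5% to 54.9% in cohort 1 and from 38.5% to 16.7% in cohort 2 (adjusted p = 0.0291). At chr4:147434535-147434536 it went from 50.1% to 57.4% and from 37.8% to 15.5% (0.0331), and at chr19:53954721-53954722, named after its values were seen, from 33.7% to 31.0% and from 31.1% to 11.6% (0.0352), and all 8 pups of cohort 2 were lower at each of these members except Dapk1. Dapk1, AABR07051218.1 and chr4:147434535 correlated with the mean of the other members at r = 0.769, 0.902 and 0.902. The mean of the 5 epithelial DMRs went from 41.2% to 43.8% in cohort 1 and from 28.9% to 20.5% in cohort 2. The leukocyte mean went from 45.2% to 42.4% and from 36.5% to 32.5%, and Mrc2 from 55.2% to 57.1% and from 41.1% to 26.8%. The part of cell composition in these differences was not tested. The count of 4 became 57, 38 or 38 without control 6 or 9 of cohort 1 or control 11 of cohort 2 (9.01%, 7.23% or 6.44% of all DMRs). It was 8 without control 1 of cohort 2 (2.6%), 6 without LBN 4 of cohort 1 (1.96%) and 4 without LBN 9 of cohort 2 (1.4%). Without each other pup it was 1 or 2 (0.585% to 1.55%).

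With P2 means just inside 25%, Zmat5, a component of the minor spliceosome, had a P10 mean of 36.6% and chr5:136222312 one of 31.9%, and with P2 means just below 25%, Gdnf, a neurotrophic factor, had 37.4% and Fzd7, a Wnt receptor, had 40.2%. With P2 means just inside 45%, RGD1306271 had a P10 mean of 48.7% and chr18:80149910 one of 42.8%, and just outside it chr7:140473260 had 65.7% and Fam189a1 had 47.6%. The steadiest member was chr19:56338714, with an SD of 3.04 points over the 38 samples, followed by chr10:74376336 (5.21) and chr7:123808598 (5.87). The most variable were chr7:41250584 (SD 27.7), chr2:46723809 (27.1) and an intron member of AABR07026989.1 (26.4), each with a correlation above 0.9 with the mean of the other members (0.902, 0.946 and 0.955). At AABR07026989.1 the P10 values ran from 1.83% to 84.3% (median 37.1%).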

How the data were processed

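RRBS reads of 38 buccal swab samples were trimmed with Trim Galore 0.4.3 and aligned to rn6 with Bismark 0.16.3, per the submitters' processing notes. Per the methods of the study, CpGs with more than 10 reads were compared between P2 and P10 within pups (false discovery rate 0.05), and those shared by at least 2 pups were merged within 100 base pairs into DMRs, with genes taken within 20 kb. The deposited values are the percent methylation of 3417 DMRs per sample, before cohort correction. Read counts are not given, so the depth is unknown and other read minimums could not be tried. All sample columns were used (0 without a sample). Columns of the authors' own comparisons were not used.

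Percentages were turned into log2((percent + 1)/(100 − percent + 1)) and fitted over all 3417 DMRs with limma 3.58.1 in R 4.3.3 (lmFit, eBayes), two-sided, with Benjamini-Hochberg adjustment at 0.05. Age had the pup as a block, and LBN against control and cohort comparisons had cohort or group as a covariate. Python 3.11.15, numpy 2.4.6, pandas 2.3.3, scipy 1.17.1 and matplotlib 3.10.9 were used for the rest. P2 and P10 samples of a pup were paired by its name in the labels, since they come from the same animal. Their deviations from the group means correlated at a mean of −0.0972 over 19 pairs, against 0.0237 over 74 other pairs. The fit was tested on simulated data with 200 of 3417 DMRs changed: at 2 log2 odds it found 99.5% for age, 94% for LBN at P10, 70.5% for δ methylation, 72% between cohorts and 9.5% for the interaction at P10, and at 1 log2 odds 71%, 17.5%, 0%, 0.5% and 0%. Unchanged DMRs called numbered 7, 6, 4, 12 and 3 at 2 log2 odds, and 7, 1, 0, 0 and 0 at 1. The noise was drawn separately for each DMR, while 1 component held 53.6% of the members' variance. The rates may therefore not hold for these data.

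The members, gene lists and tests were chosen with earlier results of these data known. Members were named by rule: the 6 largest falls and 6 largest rises called with at least 16 of 19 pups in the same direction, the 5 smallest p at P10 and in change, the 3 at P2 and between cohorts, the 2 on each side of each edge, the 3 smallest and 3 largest SDs, up to 3 per list, genes named by the study and the 2 DMRs most like 4 of them. Alternatives were other scales and pseudocounts, a filter at 10 to 90%, other variance models, each cohort or group alone, another band, and each pup left out.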

Additional observations from a re-analysis of the deposited data

Results flagged for a closer look

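In 62 groups of values examined, a pup stood far from the rest of its group in 2, and chance gives about 1 in 20. At Aqp3, the change from P2 to P10 was −0.127 points in control 9 of cohort 1, and −23.4 to −14.0 points in the other controls. At Xylt2, it was 13.8 points in LBN 3 of cohort 1, and −27.3 to −9.49 points in the other LBNs.

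The change from P2 to P10 differed between the cohorts at 4 members in limma, by −2.67 log2 odds at Dapk1, −2.07 at AABR07051218.1, −2.29 at chr4:147434535 and −1.53 at chr19:53954721, each lower in cohort 2.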

How the results depend on the processing

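The 228 members called for age became 150 in cohort 1 alone, 118 in cohort 2 alone, 123 in controls alone, 26 in LBNs alone and 112 with a band of 30 to 40%, which holds 352 members, and were 194 to 262 with each pup left out in turn. In cohort 1 alone, leaving out a pup gave 62 to 271 (13.7% to 39% of all DMRs), and in cohort 2 alone 59 to 163 (17.1% to 31.5%). LBN against control at P10 gave 109 calls in cohort 1 alone, at P2 96 in cohort 2 alone and 361 with array weights, and in the change 1 with array weights, and with both cohorts and 1 pup left out these counts were 0. Cohort 2 against cohort 1 in the change gave 4 calls, and 7 on percentages, 27 on log2 of the percentage, 8 with a pseudocount of 5, 8 with trend and robust, 237 with array weights, and 1 to 57 with each pup left out. The 105 DMRs chosen in cohort 1 and called in cohort 2 became 166 when chosen in cohort 2 and read in cohort 1. The mean P10 level of 35.4% was 28.6% in cohort 2 alone and 34.7% to 35.9% with each pup left out. The mean change of −0.43 points was −0.96 to 0.0048 with each pup left out, above 0 without control 6 of cohort 1, and 1.96 and −3.72 points in the cohorts. Without the replicate block of pups, age gave 261 calls. A number carried by both a control and an LBN is a name only (5 pairs within cohorts, mean r of their changes 0.00593), and a replicate block on them gave 0 calls for LBN at P10, at P2 and in the change. Of 26 named members called for age, 9 kept the call in every alternative and none turned. The fits of 1 cohort with a pup left out and the interaction fits were chosen after seeing the data. The cause of each shift was not tested.

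The depth behind a percentage is unknown, so a member with few reads cannot be told from one with many. The members were chosen by their P2 values, so their changes from P2 are not independent of the choice. The DMRs were selected for age differences in these pups, and gene names cover 120 of the members.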
